A study of Mus musculus with 5 samples.

Results

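DNA break repair and the DNA damage response were followed through 34 genes in newborn mouse ovaries with and without Lhx8. The genes were chosen by symbol, and every probe set whose only annotated symbol was one of the 34 was taken, which gave 76 probe sets for 34 of the 18193 genes with such a probe set. Of the 34, 26 encode repair and checkpoint proteins and 8 were grouped as targets of the transcription factor p53, and these were kept apart. Of the 8, Gadd45b and Gadd45g stand with their relative Gadd45a, and whether p53 induces them was not tested. All 5 arrays of the series carried RNA of ovaries taken at postnatal day 0.5. The first group was 3 pools from Lhx8 null animals (replicates 1, 2 and 3), and the second was 2 pools from wild type animals (replicates 2 and 3) of the C57/129 background, which the study gives as the same for both. A pool held 50 ovaries of at least 25 animals, so each replicate was a pool and not an animal. The sources used here do not say how the null allele was made.

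The proteins work in layers. Broken DNA ends are bound by the MRN complex and by the Ku heterodimer, and single-stranded DNA at a break or a stalled fork brings in the ATR kinase, which signals to CHK1 and holds the cell cycle. The break is then rejoined by end joining, or copied from an intact sister by homologous recombination, with the Fanconi anaemia proteins handling crosslinks. p53 answers the same signals by switching on genes that stop the cell cycle, repair DNA or start cell death. In the newborn ovary the oocytes have just passed through the meiotic recombination that makes and mends breaks on purpose, and they lie arrested in prophase, while the somatic cells around them divide.

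Lhx8, a LIM homeodomain gene of oocytes, read 332.6, 159 and 347.4 in null pools, against 6450.1 and 5223.1 in wild type pools, which matches the labels. Arrays correlated at 0.960 to 0.974 among the null pools, at 0.970 between the wild type pools and at 0.905 to 0.931 between groups. Signals are scaled array intensities, and a fold change is Lhx8 null over wild type on the scale log2(signal + 16) after quantile normalisation. Cell type marker lists, chosen with earlier results of these data known, were read as a description and not as a test. All 14 germ cell markers were lower in the null ovaries. Their summed signal was 10163 to 15072 in null pools, against 100372 to 102692 in wild type pools. Pregranulosa markers were lower for 6 of 7 genes (16828 to 19236 against 27427 to 30060). Higher were 8 of 8 stromal and smooth muscle markers, 6 of 6 of oviduct epithelium, 6 of 7 of macrophages and 4 of 6 of endothelium. Beside these lists, 25.6% of all genes tested were higher and 22.3% lower. The largest ratio among these lists was that of oviduct epithelium, with a summed signal of 12022 to 14477 in null pools, against 1714 to 1970 in wild type pools. In such bulk tissue, fewer cells of a type and less RNA per cell cannot be told apart, and the part that these shifts in markers play in the results below was not tested.

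Among the 26 repair and checkpoint genes, 12 fell in the Lhx8 null ovaries and 0 rose. They were Atr, Chek1, Mdc1, Rad17 and Rad1 of the checkpoint, Brca2 and Blm of homologous recombination, Rad50 of the MRN complex, Xrcc5 and Xrcc6 of end joining, and Fancc and Fancd2 of the Fanconi anaemia pathway. Fancg lay below the brightness filter (the 40% of genes with the lowest mean), so the 12 were 48% of 25 tested, and the other 13 did not pass. Across all 10916 genes tested, 22.3% fell and 25.6% rose. The median log2 fold change of the 25 was -0.46, beside 0.04 for all genes tested. Without the brightness filter the same 12 of 26 fell, where 15.2% of all genes fell and 15.8% rose. On the deposited signals, every null array lay below every wild type array for 17 of the 26 genes and above for 3, namely Rad9a, Fanca and Fancg. Among all genes tested, those shares were 31.2% below and 37.4% above. The calls, adjusted over all genes tested, come from limma with Benjamini-Hochberg adjustment. The plot of signals by array shows each of the 26 genes.

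**Figure D1:**
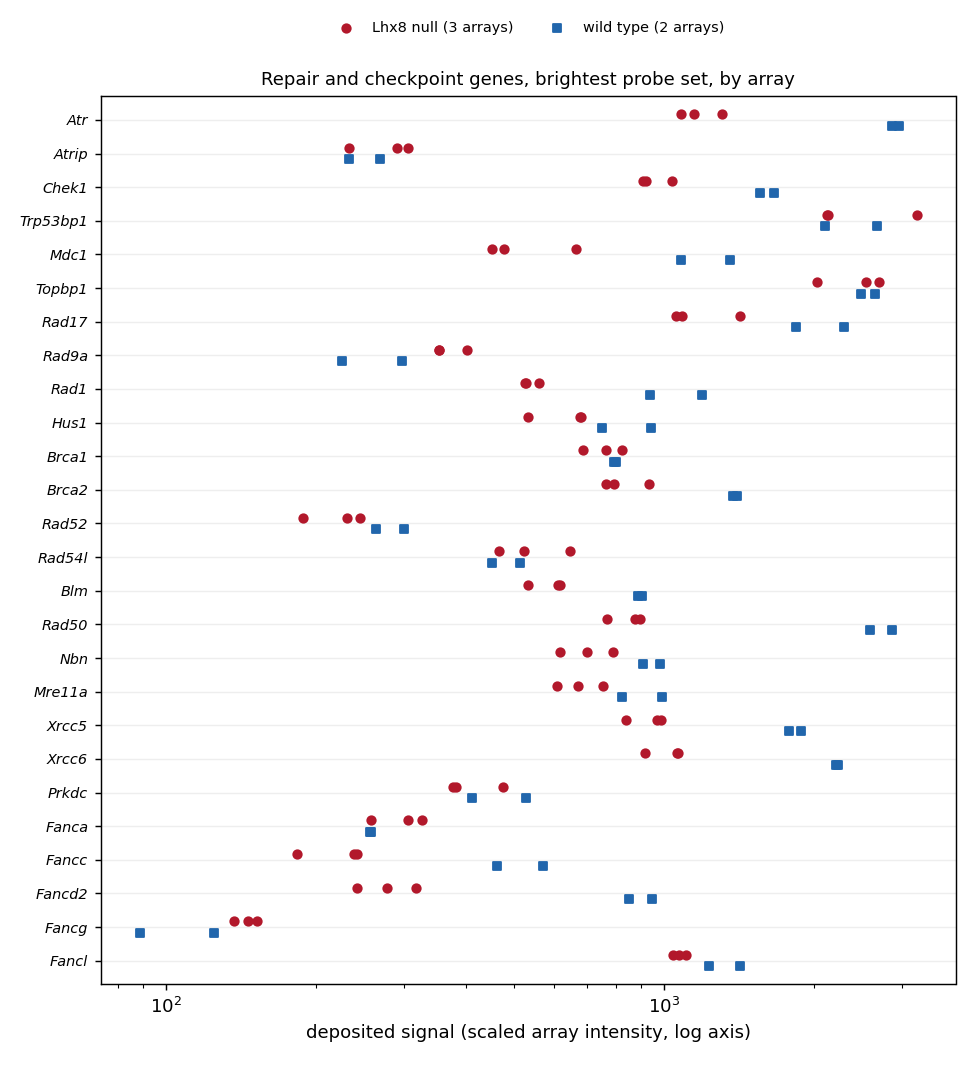
Deposited signal (scaled array intensity, log axis) of the brightest probe set of each of the 26 repair and checkpoint genes, with 1 point per array (3 Lhx8 null, 2 wild type). For 17 genes, Atr and Rad50 among them, all null points lie left of all wild type points, and for 3 they lie to the right.

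Atr encodes the kinase at the head of the replication stress and single-strand signal. It had signals of 1307.3, 1079.7 and 1149.3 in the null pools, against 2872.1 and 2968 in the wild type pools. No null pool came near a wild type pool, and the mean signal was 1179 ± 117 (SD, n = 3) in null and 2920 ± 67.8 (SD, n = 2) in wild type. Atr fell, with a log2 fold change of -1.25 (SE 0.13, adjusted p = 0.000109). Its call rests on 1 of 3 probe sets: the other 2 were dimmer and did not pass (-0.24 and 0.15), and with the 3 averaged the change was -0.45 (adjusted p = 0.0879). Atrip, the partner through which ATR reaches coated single-stranded DNA, had signals of 232.6, 306.5 and 290.1 in null and of 232.5 and 268.7 in wild type. The pools overlapped and the log2 fold change was -0.01, with a 95% interval of -0.52 to 0.50.

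Chek1 encodes the kinase that ATR activates. Its signals were 906.3, 920.5 and 1039.3 in the null pools, against 1554.4 and 1659.5 in the wild type pools. The groups were apart and Chek1 fell, by 0.68 (SE 0.14, adjusted p = 0.00314). A further Chek1 probe set fell by 1.11 (SE 0.20, adjusted p = 0.00342 over the 27023 probe sets tested, as for all further probe sets given). Of its other probe sets, 1 missed the threshold in the same direction (-0.63, adjusted p = 0.0525) and 2 were below the filter. By the naming of the array, the bright probe sets of Chek1, Gadd45b and Sesn1 may also match other transcripts.

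The ring-shaped RAD9-RAD1-HUS1 clamp is loaded at damaged DNA by RAD17 and helps to activate ATR through TOPBP1. Rad1 fell by 0.93 (SE 0.16, adjusted p = 0.00136), with signals of 528, 526.5 and 560.2 in null against 936.9 and 1188.7 in wild type. The 3 null pools lay close together and far below the wild type pools. For the loader Rad17, the signals were 1086.4, 1057.8 and 1421.9 in null against 2300.5 and 1839.9 in wild type, a fall of 0.74 (SE 0.17, adjusted p = 0.00755). This call was lost without wild type replicate 2 (-0.57, adjusted p = 0.0796) and kept without wild type replicate 3 (-0.90, adjusted p = 0.0213). The other clamp subunits did not pass the test. Hus1 had -0.41 (adjusted p = 0.0922), with 533.2, 680.2 and 676.4 in null and 750.8 and 942.2 in wild type, and its call was reached with each array centred on its median (adjusted p = 0.0217) and with probe sets averaged (adjusted p = 0.0282). Rad9a stood the other way, at 353.9, 402.7 and 353.1 in null and 296.9 and 225.3 in wild type (0.38, adjusted p = 0.132). So of the clamp and its loader, the values of Rad9a were the only ones higher in null. Topbp1 did not differ beyond its spread at its bright probe set (-0.04, 95% interval -0.36 to 0.28). A dim second Topbp1 probe set read 135.2, 69.5 and 28.2 in null and 3.5 and 6.2 in wild type, and averaging both turned the value to 0.91 (adjusted p = 0.006).

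Mdc1 and Trp53bp1 encode large adaptors that gather on chromatin beside a break. Mdc1 had 476.6, 450.9 and 666.2 in the null pools and 1079.9 and 1358.3 in the wild type pools. Every null pool was well under the wild type pools, and Mdc1 fell by 1.16 (SE 0.20, adjusted p = 0.00158). Trp53bp1 had 3213.7, 2124 and 2134.6 in null and 2106.3 and 2677.8 in wild type. Null replicate 1 was the highest of the 5 and the groups overlapped (0.10, 95% interval -0.36 to 0.56). None of the 6 Trp53bp1 probe sets passed the test over all probe sets. Null pools still lay above wild type pools at dimmer ones (0.30, 0.53, 1.13 and 0.66), while the remaining one overlapped (-0.25).

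The MRN complex is made of MRE11, RAD50 and NBS1, the last encoded by Nbn; it holds broken ends together, trims them and activates the ATM kinase. Rad50 had signals of 766.2, 872.4 and 896.3 in the null pools, against 2593.2 and 2871.6 in the wild type pools. The mean null signal was 0.309 times that of wild type, and Rad50 fell by 1.63 (SE 0.14, adjusted p = 3.42e-05). Its other probe set was below the filter on all arrays, with signals of 4.7 to 39.2, and averaging the pair left -0.81 (adjusted p = 0.033). Nbn had 618.3, 790.8 and 700.2 in null and 905 and 981.9 in wild type, and Mre11a had 609, 754 and 671.6 in null and 821.9 and 992.2 in wild type. Null pools lay below wild type pools for both of these subunits, yet neither passed: Nbn had -0.40 (adjusted p = 0.069) and Mre11a -0.39 (adjusted p = 0.0801). The 95% intervals were -0.76 to -0.03 for Nbn and -0.76 to -0.02 for Mre11a, while that of Rad50 was -1.94 to -1.31. Both passed with each array centred on its median (adjusted p = 0.0137 and 0.0152 for Nbn and Mre11a), and Nbn also under the deposited scaling (adjusted p = 0.0467). A dimmer Mre11a probe set overlapped between groups and did not pass (-0.05, adjusted p = 0.9).

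End joining starts when the Ku heterodimer slides onto a broken end. Its larger subunit, Ku80, is encoded by Xrcc5, and the smaller, Ku70, by Xrcc6. Xrcc5 had 986.5, 966.3 and 838.4 in null against 1782.9 and 1878.8 in wild type, a fall of 0.91 (SE 0.14, adjusted p = 0.000684). Xrcc6 had 915.8, 1068 and 1058.8 in null against 2231.8 and 2210.2 in wild type, a fall of 1.07 (SE 0.14, adjusted p = 0.000284). For both Ku subunits the null pools lay far below the wild type pools, with little spread in either group. The Xrcc6 value is that of its bright probe set, and averaging it with a probe set that read at most 30.9 gave -0.14 (adjusted p = 0.663). Prkdc, the catalytic subunit of the DNA-dependent kinase that Ku recruits, had 475.7, 382.4 and 377.5 in null and 527.7 and 411.5 in wild type. These overlapped (-0.21, 95% interval -0.62 to 0.19).

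**Figure D2:**
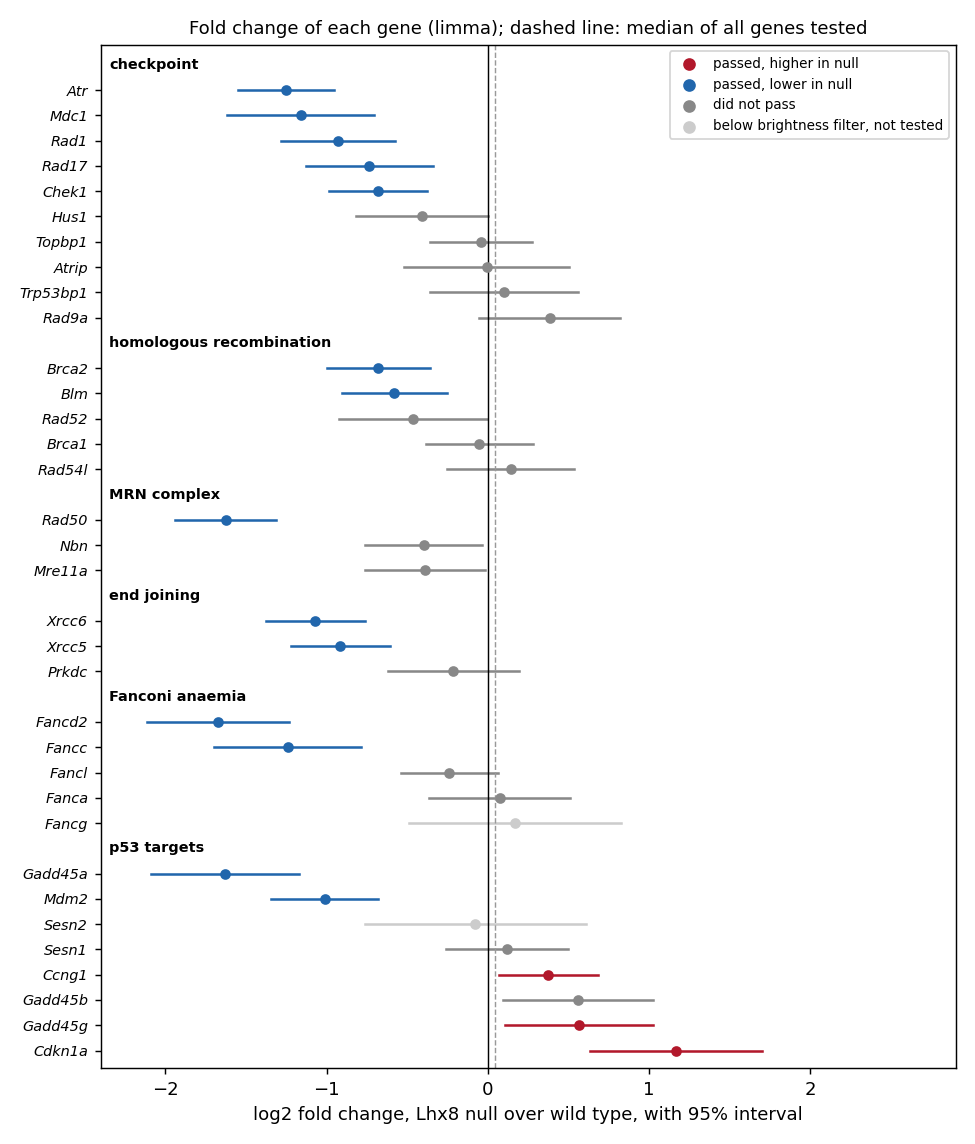
Log2 fold change of each of the 34 genes, Lhx8 null over wild type, from limma, with its 95% interval; the dashed line is the median of all genes tested, 0.04. Red points passed as higher (3), blue as lower (14), grey did not pass (15), and light grey lay below the brightness filter (2).

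In homologous recombination, BRCA1 and BRCA2 prepare the broken end for pairing with the intact copy, RAD52 and RAD54 help the strand exchange, and the BLM helicase takes the joined molecules apart. Brca2 fell by 0.68 (SE 0.14, adjusted p = 0.0039), with signals of 934.2, 793.5 and 765.3 in null and 1398.1 and 1373 in wild type. For Blm the signals were 617.5, 533.4 and 612.3 in null and 901.5 and 887.8 in wild type, a fall of 0.58 (SE 0.14, adjusted p = 0.00936). Neither gene had overlapping groups. The Blm call was lost without wild type replicate 2 (adjusted p = 0.0522) and without wild type replicate 3 (adjusted p = 0.0573), at almost the same size of change. Rad52 had -0.46 (adjusted p = 0.0875) and gained a call in 2 of 16 alternative settings. Rad54l had 0.14 with overlapping pools at its bright probe set. At its dimmer tested probe sets null pools lay above wild type pools without a call (0.17 and 0.53). Brca1 was split by probe set. Its bright probe set read 686.5, 765.5 and 822.4 in null and 799.9 and 792.4 in wild type, with overlap and a log2 fold change of -0.05 (95% interval -0.39 to 0.28). Probe sets at lower signal read 286.5, 207.2 and 285.7 in null against 369.3 and 415.5 in wild type (-0.66, adjusted p = 0.0377) and 164.9, 233.3 and 253.3 against 341.2 and 392.9 (-0.85, adjusted p = 0.0359). Both passed over the 27023 probe sets, and neither did without the brightness filter (adjusted p = 0.0641 and 0.063).

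Several of the falling genes carry a letter match to the E2F element in the 250 bases before their start, an element of genes used around DNA replication. Starts and sequences are those of RefSeq on GRCm38.p6, which had entries for 29 of the 34 genes, in 33 windows. TTTCCCGC or TTTGGCGC, searched on both strands, stood in 1.3% of all 32851 windows and in those of Mdc1, Brca2, Xrcc6 and Fancg, all as TTTCCCGC (0.895% of windows). Mdc1, Brca2 and Xrcc6 fell, and Fancg was not tested by gene. In the fit over probe sets, neither Fancg probe set passed (0.17, adjusted p = 0.657, and -0.45, adjusted p = 0.221). CCAAT, searched on both strands, stood in 33.8% of windows and before 16 of the 29 genes, and TAATTA, a core that many homeodomain proteins bind, stood in 4.84% of windows and before 0 of the 29. A match of letters is a description and not a bound site. The windows of the 3 falling genes are shown, 5′ to 3′ on the gene's strand, with the E2F match (GCGGGAAA when read from the other strand) and, for Mdc1, the CCAAT match in capitals; they lie at chr17:35841248-35841497 (+), chr5:150522371-150522620 (+) and chr15:82016119-82016368 (+).
Mdc1: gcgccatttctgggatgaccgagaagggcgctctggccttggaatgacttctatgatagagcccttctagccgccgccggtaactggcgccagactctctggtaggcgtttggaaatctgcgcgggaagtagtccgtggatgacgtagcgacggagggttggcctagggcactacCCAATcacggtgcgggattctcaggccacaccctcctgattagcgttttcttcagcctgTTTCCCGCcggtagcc
Brca2: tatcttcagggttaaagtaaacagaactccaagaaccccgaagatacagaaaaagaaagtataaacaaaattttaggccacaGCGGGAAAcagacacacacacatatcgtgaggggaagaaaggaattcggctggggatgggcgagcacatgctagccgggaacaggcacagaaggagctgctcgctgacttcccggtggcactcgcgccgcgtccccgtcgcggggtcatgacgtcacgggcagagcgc
Xrcc6: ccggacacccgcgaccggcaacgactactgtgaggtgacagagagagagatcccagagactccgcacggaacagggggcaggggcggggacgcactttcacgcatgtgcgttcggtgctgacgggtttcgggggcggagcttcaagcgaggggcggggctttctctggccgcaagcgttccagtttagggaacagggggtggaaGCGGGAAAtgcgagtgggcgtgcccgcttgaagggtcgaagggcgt

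The Fanconi anaemia proteins detect DNA crosslinks: a core complex that includes FANCA, FANCC, FANCG and the ubiquitin ligase FANCL marks FANCD2, which then directs repair. Fancd2 had signals of 241.8, 318.2 and 277.3 in null, against 946.5 and 849 in wild type. The null mean was 0.311 times the wild type mean, and Fancd2 fell by 1.67 (SE 0.19, adjusted p = 0.000182). A second Fancd2 probe set fell by 2.01 (adjusted p = 0.00153), and 2 more were below the filter. Fancc of the core complex had 241.4, 183.1 and 238.3 in null against 461.3 and 569.8 in wild type, a fall of 1.24 (SE 0.20, adjusted p = 0.00112). Its dimmer probe sets did not pass (-0.31 with overlap, adjusted p = 0.432, and -0.98, adjusted p = 0.108). The rest of the core did not pass. Fancl had 1073, 1108.4 and 1040.8 in null and 1227.9 and 1417.1 in wild type (-0.24, adjusted p = 0.17), Fanca had 0.07 with a 95% interval of -0.36 to 0.51, and Fancg lay below the filter with signals of 136.7 to 152.1 in null and 88.5 to 124.5 in wild type. Fancl passed only with each array centred on its median (-0.54, adjusted p = 0.0159).

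Read by probe set, 65 of the 76 were bright enough to test; 20 fell, 3 rose and 42 did not pass. Over all 27023 probe sets tested, 18.3% fell and 19.3% rose. In 22 genes there was more than 1 probe set, and these did not always match. Brca1, Ccng1, Gadd45b, Topbp1 and Atr were the clearest cases, chosen after their values were seen, and for them the choice of probe set sets the answer.

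**Figure D3:**
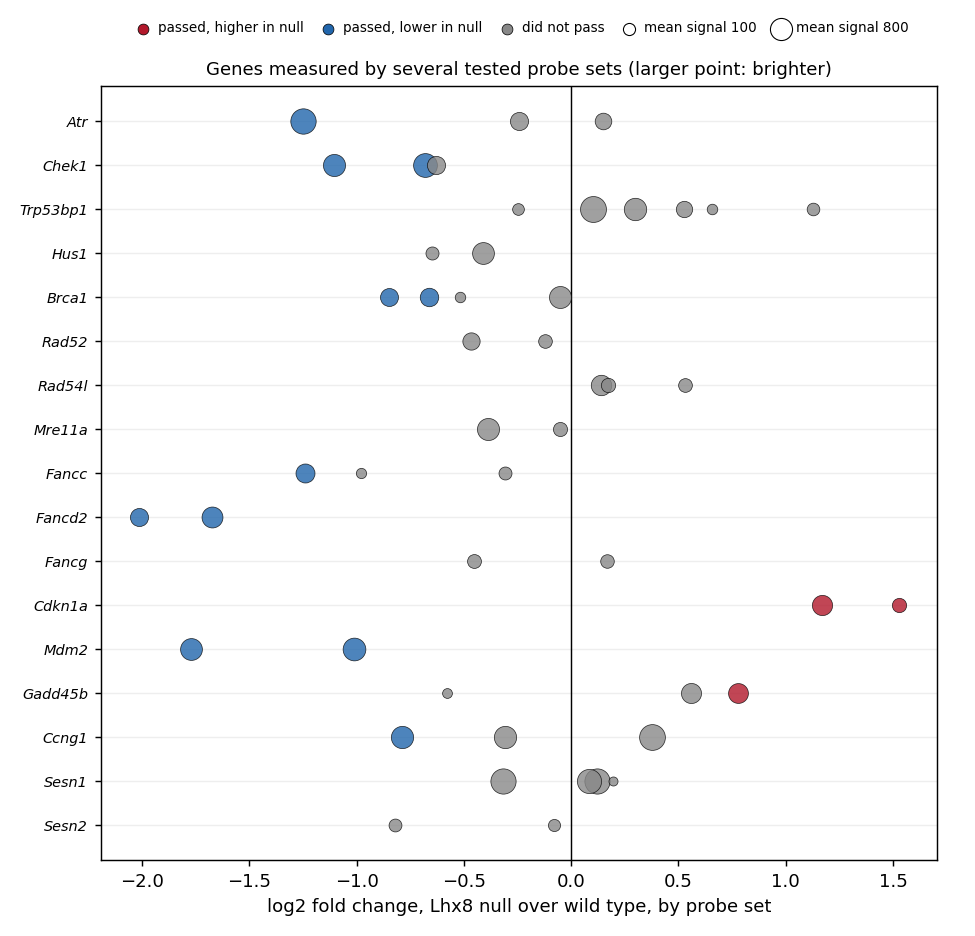
Log2 fold change, Lhx8 null over wild type, of each tested probe set, for the 17 genes with more than 1 of them, from the limma fit over probe sets; larger points are brighter, red passed as higher, blue as lower, and grey did not pass. Chek1, Brca1, Fancd2 and Mdm2 each have more than 1 probe set that passed as lower, while Ccng1 has values on both sides of 0.

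The 8 p53 targets did not move as a group: 3 rose (Cdkn1a, Gadd45g and Ccng1), 2 fell (Mdm2 and Gadd45a), 2 did not pass (Gadd45b and Sesn1) and Sesn2 was below the filter. Over all genes tested 25.6% rose and 22.3% fell, so a split in both directions is also what the whole array showed. Without the filter 1 of 8 rose (Cdkn1a) and 2 fell, beside 15.8% and 15.2% of all genes. Their median log2 fold change was 0.37 over the 7 tested and 0.25 over all 8 without the filter. Its direction depended on the processing: it was 0.076 with each array centred on its median and -0.11 with probe sets averaged. Cdkn1a encodes p21, the inhibitor that halts cyclin-dependent kinases. Its signals were 921.6, 617.4 and 550.5 in null, against 242.2 and 325.9 in wild type. All null pools were above both wild type pools, null replicate 1 highest, and Cdkn1a rose by 1.17 (SE 0.24, adjusted p = 0.00344). The second Cdkn1a probe set, dimmer at 171.4, 244.7 and 242 in null against 22.8 and 107.7 in wild type, rose by 1.53 (adjusted p = 0.0337), a call lost without the brightness filter (adjusted p = 0.0624).

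Mdm2 encodes the ubiquitin ligase that p53 induces and that in turn removes p53. Its signals were 644.3, 567.9 and 621.9 in the null pools and 1397.9 and 1164.1 in the wild type pools. The groups were far apart, in the direction opposite to Cdkn1a, and Mdm2 fell by 1.01 (SE 0.15, adjusted p = 0.000574). Another Mdm2 probe set read 335.4, 373.7 and 275.6 in null against 1045 and 1252 in wild type, a fall of 1.77 (adjusted p = 0.000313). Gadd45a, a stress-induced regulator of the cell cycle and of demethylation, had 274.1, 258.4 and 188 in null against 678.8 and 805 in wild type. It fell by 1.63 (SE 0.20, adjusted p = 0.000259).

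Its relatives Gadd45b and Gadd45g, also induced by stress, had values on the other side. Gadd45g had 512.2, 369.4 and 347.1 in null against 261.3 and 239.5 in wild type, and rose by 0.56 (SE 0.20, adjusted p = 0.0463). Gadd45b had 603.8, 648.2 and 461.5 in null and 440.9 and 306.9 in wild type, and its value of 0.56 just missed the threshold (adjusted p = 0.0505). A second Gadd45b probe set passed (0.78, adjusted p = 0.0121), and a dim further probe set had -0.58 (adjusted p = 0.165). Gadd45a and Gadd45b thus had null pools on opposite sides of the wild type pools. The calls of Gadd45g and Ccng1 were marginal: Gadd45g lost its call in 9 of 16 alternative settings (adjusted p up to 0.191), and Ccng1 in 10, with its direction reversed in 1 more. Gadd45b gained a call in 4 of 16.

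Ccng1 encodes cyclin G1, which takes part in the p53 and MDM2 loop. Its bright probe set read 2188.7, 2825.2 and 2765.1 in null against 2067.7 and 2048.4 in wild type, a rise of 0.37 (SE 0.14, adjusted p = 0.0472). Another read 611.3, 600.2 and 579 in null against 986.3 and 1147 in wild type, a fall of 0.79 (adjusted p = 0.00459). The third probe set read 607.8, 841.6 and 770.4 in null against 933.3 and 921.4 in wild type, with every null pool lower but no call (-0.31, adjusted p = 0.218). The gene was thus called higher in the fit by gene, while 2 of its 3 probe sets had lower values in null, and its direction is not settled. The bright probe set itself missed the threshold in the fit over probe sets (adjusted p = 0.0611). Averaged over its probe sets, it had -0.24 (adjusted p = 0.185). Sesn1, a sestrin that restrains growth signalling, overlapped between groups (1649.3, 2395.4 and 1966.3 in null, 1737.6 and 2089.5 in wild type; 0.12, 95% interval -0.26 to 0.50). Sesn2 had overlapping signals of 99.6 to 117.8 in null and 82 to 107.7 in wild type, below the filter by gene. In the fit over probe sets this one did not pass (-0.08, adjusted p = 0.851). The other Sesn2 probe set read 210.4, 39.6 and 48.8 in null and 128.9 and 120.4 in wild type (-0.82, adjusted p = 0.264).

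**Figure D4:**
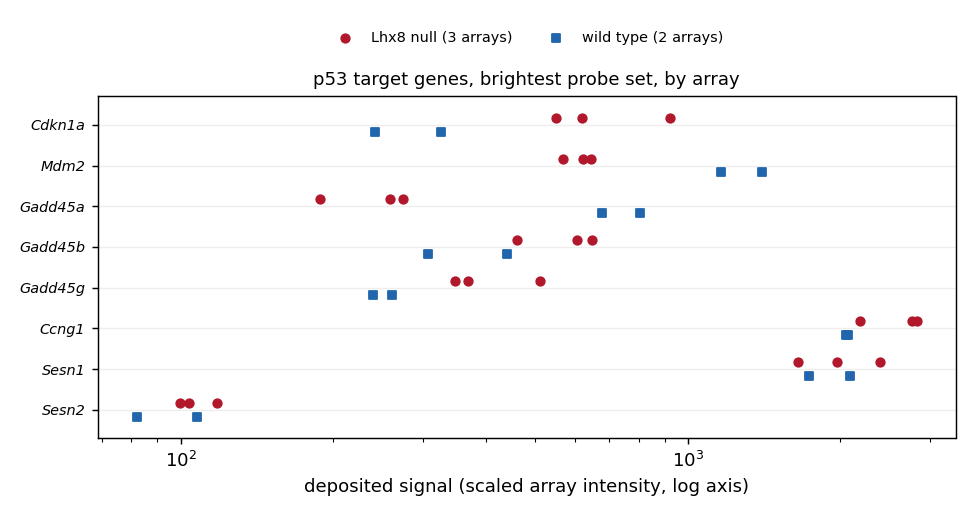
Deposited signal (scaled array intensity, log axis) of the brightest probe set of the 8 p53 targets, with 1 point per array (3 Lhx8 null, 2 wild type). All null points lie to the right of the wild type points for Cdkn1a, Gadd45b, Gadd45g and Ccng1 and to the left for Mdm2 and Gadd45a. Among all genes tested, 37.4% had all null signals above and 31.2% all below those of wild type.

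The windows before the starts of Cdkn1a, Mdm2 and Gadd45a are shown because these genes had the largest changes of the p53 targets. A p53 site was searched as 2 adjoining half-sites of 10 bases with exact cores and at most 2 mismatches in all. Such a match stood in 0.134% of the 32851 windows and before 1 gene of the set, Cdkn1a, at chr17:29090928-29090947 (+) with 1 mismatch. Cdkn1a has RefSeq starts 2790 bases apart, and the match ends 31 bases before the upstream one. No match in the other windows says only that these letters are not in these 250 bases; known p53 sites of several targets lie elsewhere, for instance inside the first intron of Mdm2. Capitals mark the p53 match for Cdkn1a and the CCAAT match for Mdm2 and Gadd45a, at chr17:29090729-29090978 (+), chr10:117710759-117711008 (-) and chr6:67037408-67037657 (-).
Cdkn1a: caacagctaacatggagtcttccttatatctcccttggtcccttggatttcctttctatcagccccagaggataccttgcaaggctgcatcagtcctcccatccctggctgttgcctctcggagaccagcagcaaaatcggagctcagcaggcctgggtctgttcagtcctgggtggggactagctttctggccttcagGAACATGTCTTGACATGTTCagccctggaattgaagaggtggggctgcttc
Mdm2: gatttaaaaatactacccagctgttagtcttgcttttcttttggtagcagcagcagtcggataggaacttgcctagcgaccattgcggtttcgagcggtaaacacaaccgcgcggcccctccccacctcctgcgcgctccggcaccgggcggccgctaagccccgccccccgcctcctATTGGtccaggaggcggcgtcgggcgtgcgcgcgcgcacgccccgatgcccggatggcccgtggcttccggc
Gadd45a: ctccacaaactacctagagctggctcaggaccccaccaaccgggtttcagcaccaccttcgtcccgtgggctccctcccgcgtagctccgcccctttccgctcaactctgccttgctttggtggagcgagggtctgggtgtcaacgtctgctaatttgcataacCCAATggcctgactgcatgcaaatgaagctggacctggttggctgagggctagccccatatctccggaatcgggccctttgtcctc

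Other genes of the same pathways were read from lists. Of 17 other checkpoint genes tested, 4 fell and 1 rose. Rnf8, a ubiquitin ligase that acts next to MDC1, fell by 1.62 (adjusted p = 3.24e-05) and Rif1, which works with 53BP1, by 1.20 (adjusted p = 0.000104), while the phosphatase Cdc25b rose by 0.96 (adjusted p = 0.002). Of 16 other homologous recombination genes, 4 fell and 1 rose: Palb2, the bridge between BRCA1 and BRCA2, fell by 1.37 (adjusted p = 0.000207), the nuclease Exo1 fell by 0.92 (adjusted p = 0.00131), and Rad51ap1 rose by 0.74 (adjusted p = 0.00276). Of 7 other end joining genes 1 fell, Xrcc4, the partner of DNA ligase IV (-1.63, adjusted p = 0.000268); Lig3 and Parp1 had -0.36 and -0.31 and did not pass. Of 12 other Fanconi anaemia genes, 2 fell and 2 rose. Ube2t, the conjugating enzyme that works with FANCL, fell by 1.84 (adjusted p = 2.84e-05), Fanci, the partner of FANCD2, fell by 1.44 (adjusted p = 0.00165), and Usp1, which strips the mark from FANCD2, rose by 0.92 (adjusted p = 0.000259). The shares that fell in these lists ran from 14.3% to 25%, beside 22.3% of all genes tested.

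Of 16 other p53 targets tested, 6 rose and 5 fell. Dcxr rose by 1.33 (adjusted p = 0.000374), Ei24 by 0.89 (adjusted p = 0.000448) and Phlda3, a restraint on AKT, by 1.11 (adjusted p = 0.000471). That is 37.5% higher and 31.2% lower, beside 25.6% and 22.3% of all genes tested. Of the p53 family and its regulators, the 2 tested genes fell: Trp63, which guards the oocyte genome, had 14.3, 98.5 and 63.5 in null against 2120 and 2310 in wild type, and Mdm4, which restrains p53, fell by 1.22 (adjusted p = 0.000217).

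Dividing cells use many repair genes, so proliferation genes were read beside them. Of 19 tested, 9 rose and 3 fell, beside 25.6% and 22.3% of all genes tested. Mki67 was up by 1.77 (adjusted p = 1.62e-05), Top2a up by 1.20 (adjusted p = 9.5e-05) and Ube2c down (-1.41, adjusted p = 3.6e-05). The summed signal of the proliferation genes in null was 1.16 times that in wild type. The part of cell division in the values of the repair genes was not tested. Immediate early genes, which also respond to handling of tissue, rose for 8 of 13 and fell for 1, beside those same shares of all genes. Myc (1.15), Klf4 (1.09) and Jun (0.96) were the leading ones. The summed signal of the immediate early genes was 10131 to 12117 in null and 6923 to 8502 in wild type. Its part in the values of Cdkn1a, Gadd45b and Gadd45g was not tested.

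**Figure D5:**
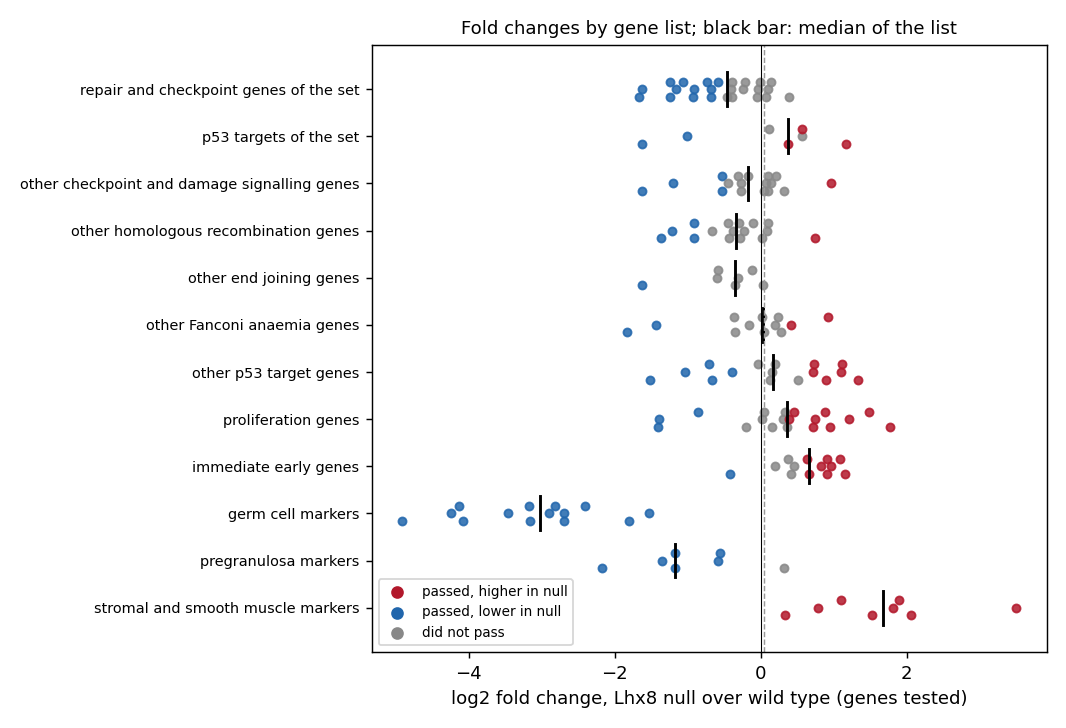
Log2 fold change, Lhx8 null over wild type, of the tested genes in each list, 1 point per gene, with a bar at the list's median and a dashed line at the median of all genes tested, 0.04; red passed as higher, blue as lower, and grey did not pass. The repair and checkpoint genes centre at -0.46, and the 7 p53 targets tested spread on both sides of 0. The germ cell markers lie lowest of the marker lists, at a median of -3.03.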

How the data were processed

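RNA of 5 pools of newborn mouse ovaries was measured, 3 Lhx8 null and 2 wild type, each on 1 array of 45101 probe sets. Groups and replicate numbers come from the sample titles; wild type replicate 1 is not analysed here. The authors deposited linear intensities, 1 for each probe set, which had been scaled, as their values show: the trimmed mean was equal on all arrays. Per the submitters' processing notes, wild type arrays were read with GCOS; for null arrays the sources used here name no software. For the present values the 64 control probe sets were dropped, intensities became log2(signal + 16), and arrays, whose medians differed by 0.38 on that scale, were quantile normalised. Each of 18193 genes with a probe set of a single symbol was represented by its brightest probe set, and the dimmest 40% were left out, which left 10916. Lhx8 null minus wild type was tested with limma 3.58.1 in R 4.3.3 (lmFit, eBayes with a trend, two-sided) and Benjamini-Hochberg adjustment at 0.05; a like fit ran over 27023 probe sets. With 3 against 2 pools the precision is limited. The p-values set each difference against the spread between pools, which eBayes moderates with the spread of other genes. The 3′ to 5′ signal ratio of the actin control probe sets was 1.48 to 1.69 on null arrays and 1.39 to 1.43 on wild type arrays. The part of this difference in the results was not tested.

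The members and lists were chosen with earlier results of these data known. The named genes are all 34 members and the 3 genes with the smallest p of each other list; other list genes named, and the probe sets singled out, were chosen after their values were seen. List genes with no probe set of a single symbol were not analysed here. Alternatives covered scaling, added constant (1 or 64), filter, probe set choice, variance model, threshold, replicate block and each array left out. Deviations from the group mean correlated between same-numbered pools at -0.13 for replicate 2 and 0.10 for replicate 3. With only 2 wild type pools, their deviations mirror each other, so these values cannot decide whether the pools were paired. Plots were made in Python 3.11.15 with matplotlib 3.10.9.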

Additional observations from a re-analysis of the deposited data

How the results depend on the processing

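Of the repair and checkpoint genes, 10 to 17 fell across the 16 alternative settings, out of 25 or 26 tested, and 12 of 25 in the setting reported. The highest count, 17, came with each array centred on its median, where the median of the repair genes was -0.67. Under this scaling 31.3% of all genes tested fell, against 22.3% in the setting reported. That scaling also moved the split over all genes, to 1720 higher and 3422 lower (33.5% of calls higher, against 53.5% in the setting reported), and lowered the p53 target genes called higher to 1 and their median to 0.076. With probe sets averaged, 11 repair genes fell and 1 rose (Topbp1, reversed to 0.91), where 21.1% of all genes tested fell. In that setting the median of the p53 targets was reversed to -0.11 and Ccng1 to -0.24. With no brightness filter, and with the dimmest 20% left out, 1 p53 target rose and the median was 0.25. At a threshold of 0.01, 1831 genes rose in all and 1 p53 target rose. Leaving out each array in turn gave 1846 to 2916 genes higher, 1543 to 2622 lower, and 1 to 3 p53 targets higher; the fewest calls were made without wild type replicate 3. With the replicate number as a block, 3068 genes rose and 2583 fell, and 12 repair genes fell, as without the block. The cause of these shifts was not tested. With 3 against 2 pools, small changes can be missed.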
